A study of Mus musculus with 9 samples.

Results

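The genes described are 10, of 17742 genes the array names, that act in the growth of blood vessels or mark the endothelial cells lining them: Vegfa, Vegfc, Kdr, Flt1, Pecam1, Cdh5, Angpt2, Tek, Esm1 and Pgf. They were taken by gene symbol from the array's annotation, which named 12 of its 26423 probes for them, with 3 probes for Pecam1 and 1 for each other gene. RNA came from the colon of female BALB/c mice, whose age was not given, in 3 groups of 3 arrays. Mock mice were untreated. Sham mice were injected with the carcinogen azoxymethane (AOM, 12.5 mg/kg) into the peritoneum on day 1, and from day 8 drank 2.5% dextran sodium sulfate (DSS), an agent that injures the gut lining. Each DSS course lasted 5 days and was followed by 16 days of plain water, and 3 additional cycles were given. The Vanillin group got AOM and DSS in the same way plus 100 mg/kg vanillin, the flavour compound, by mouth for 91 days. The 10 colonocyte markers checked were measured in all groups, none with a group mean below 50. Whether the arrays of a group came from separate mice was not given, so p-values measure only how these arrays vary, and that variation may be technical.

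New vessels form when vascular endothelial growth factors reach receptor tyrosine kinases on endothelial cells. Vegfa acts mainly through Kdr (VEGFR2), while Flt1 (VEGFR1) binds Vegfa and Pgf tightly, signals weakly and is also made as a soluble decoy. A second system, in which the angiopoietins bind the receptor Tek (Tie2), sets vessel stability: Angpt1 activates Tek, and Angpt2, released by activated endothelium, often opposes it. In the inflamed or tumour-bearing colon both systems are known to be engaged.

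The sequences upstream of annotated start sites are shown first for 2 receptors and 2 ligands, because the receptors Flt1 and Kdr moved by different amounts in these arrays and the ligands Vegfa and Pgf in opposite directions. They are the 250 bases before the start in RefSeq (GRCm38.p6), written 5′ to 3′ on the gene's strand. Capitals mark GGAA on either strand, the core of sites for ETS factors, a family that acts in endothelial genes. RefSeq windows were at hand for 7 of the 10 genes, and for Vegfa and Pgf the first of 2 windows is shown. The outermost end of the gene model lies 427 bases beyond the start used for Flt1, 617 beyond that for Kdr and 472 beyond that for Pgf, so those windows can lie inside a longer transcript.
Flt1, chr5:147726012-147726261, minus strand: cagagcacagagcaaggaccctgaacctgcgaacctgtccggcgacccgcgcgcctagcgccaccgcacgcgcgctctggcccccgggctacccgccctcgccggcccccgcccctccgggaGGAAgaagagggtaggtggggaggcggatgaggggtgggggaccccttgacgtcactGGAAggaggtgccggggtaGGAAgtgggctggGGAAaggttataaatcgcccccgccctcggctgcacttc
Kdr, chr5:75978456-75978705, minus strand: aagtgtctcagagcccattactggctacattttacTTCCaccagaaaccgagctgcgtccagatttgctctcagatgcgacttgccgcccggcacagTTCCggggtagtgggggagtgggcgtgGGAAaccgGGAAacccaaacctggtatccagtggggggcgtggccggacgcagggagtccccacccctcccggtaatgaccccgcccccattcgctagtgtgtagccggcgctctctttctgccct
Vegfa, chr17:46032378-46032627, minus strand: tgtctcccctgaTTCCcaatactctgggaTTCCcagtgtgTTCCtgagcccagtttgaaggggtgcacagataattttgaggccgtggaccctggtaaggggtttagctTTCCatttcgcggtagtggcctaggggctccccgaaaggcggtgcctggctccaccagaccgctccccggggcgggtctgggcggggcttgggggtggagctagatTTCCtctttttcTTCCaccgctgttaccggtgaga
Pgf, chr12:85177314-85177563, minus strand: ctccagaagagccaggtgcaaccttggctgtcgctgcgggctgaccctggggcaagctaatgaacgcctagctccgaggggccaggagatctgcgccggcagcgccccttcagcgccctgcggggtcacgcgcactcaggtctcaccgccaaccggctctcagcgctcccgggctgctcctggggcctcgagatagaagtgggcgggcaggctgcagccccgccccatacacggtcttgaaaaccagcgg
GGAA occurred at 4 places before Flt1, 4 before Kdr, 6 before Vegfa and 0 before Pgf. Over all 32851 RefSeq windows of this length, 93.4% held at least 1, 33.4% held 4 or more and 8.69% held 6 or more. The core letters of the hypoxia response element (ACGTG or GCGTG, either strand) occurred 2 times before Kdr, 1 time each before Flt1 and Pgf, and 0 times in the Vegfa window shown, against 38.6% of all windows with at least 1. The second Vegfa window, not shown, held 2 of these core matches and 2 of GGAA. The outermost end of the gene model lies 7214 bases beyond its start, so its letters can belong to the transcribed gene. The Flt1 window also held TATAAA, 31 bases before the start, and the cAMP response element TGACGTCA, 81 bases before it. TGACGTCA was found in 1.55% of all windows and TATAAA, either strand, in 12.4%. These matches describe the letters and say nothing of whether a factor was bound. Their part in the changes of these genes was not tested.

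Among the ligands, Pgf and Angpt2 rose 2.83-fold and 3.08-fold in Sham against Mock while Vegfa fell to 0.542 of its Mock level and Vegfc rose 1.12-fold. Values are probe intensities as deposited, and a change is the difference in mean log2(intensity + 16) with its standard error (SE). A probe was called where limma's moderated test gave an adjusted p (Benjamini-Hochberg, over all probes) under 0.05. Levels of different probes are not comparable, so only changes are set side by side. In bulk tissue, fewer cells of a type and less RNA per cell cannot be told apart.

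Vegfa, the main growth factor for vessels, read 5839, 6268 and 6210 in Mock replicates 1 to 3, 3329, 3497 and 3092 in Sham, and 4558, 4594 and 4548 in Vanillin. The 3 groups did not overlap, and Vanillin lay between the others. Vegfa fell by 0.88 in Sham minus Mock (SE 0.057, adjusted p = 1.0e-06), rose by 0.47 in Vanillin minus Sham (SE 0.057, adjusted p = 1.8e-04) and was 0.42 lower in Vanillin than in Mock (change -0.42, adjusted p = 2.5e-04). The mean intensity was thus 6106 ± 233 (SD, n = 3) in Mock, 3306 ± 203 in Sham and 4567 ± 23.9 in Vanillin. Vegfc, which acts chiefly on lymphatic vessels, went the other way in both steps. It read 523, 536 and 502 in Mock, 616, 571 and 568 in Sham, and 473, 484 and 478 in Vanillin, again with no overlap between groups but over a narrow range. Vegfc rose by 0.16 in Sham minus Mock (SE 0.05, adjusted p = 0.0194) and fell by 0.28 in Vanillin minus Sham (SE 0.05, adjusted p = 0.00165). Its change in Vanillin minus Mock, -0.12, was not called (adjusted p = 0.08). The rise of Vegfc in Sham was small enough to lose its call when 1 array was left out: adjusted p = 0.0805 without Mock replicate 3 and 0.0611 without Sham replicate 1.

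Pgf, placental growth factor, which binds Flt1 and not Kdr, read 702, 515 and 655 in Mock, 1776, 1762 and 1804 in Sham, and 1456, 1767 and 1722 in Vanillin. All 6 arrays of AOM/DSS mice were above all Mock arrays. Pgf rose by 1.50 in Sham minus Mock (SE 0.11, adjusted p = 3.3e-06), a 2.83-fold change, and by 1.38 in Vanillin minus Mock (SE 0.11, adjusted p = 9.8e-06). Between Vanillin and Sham its change was -0.12, with a 95% interval from -0.38 to 0.14 (adjusted p = 0.442), and the arrays overlapped. Angpt2, the angiopoietin that endothelium releases when activated, had the largest change of the 12 probes in Sham minus Mock. It read 1108, 1295 and 1218 in Mock, 3563, 3998 and 3669 in Sham, and 2771, 2760 and 2620 in Vanillin. Its 3 groups did not overlap. Angpt2 rose by 1.62 in Sham minus Mock (SE 0.07, adjusted p = 6.0e-08), a 3.08-fold change, and fell by 0.46 in Vanillin minus Sham (SE 0.07, adjusted p = 6.7e-04). It stayed above Mock in the Vanillin arrays by 1.16 (adjusted p = 1.2e-06), or 2.24-fold. Of all probes, 93.5% had a smaller absolute change than Angpt2 in Sham minus Mock, 92.6% a smaller one than Pgf and 83.8% a smaller one than Vegfa.

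**Figure D1:**
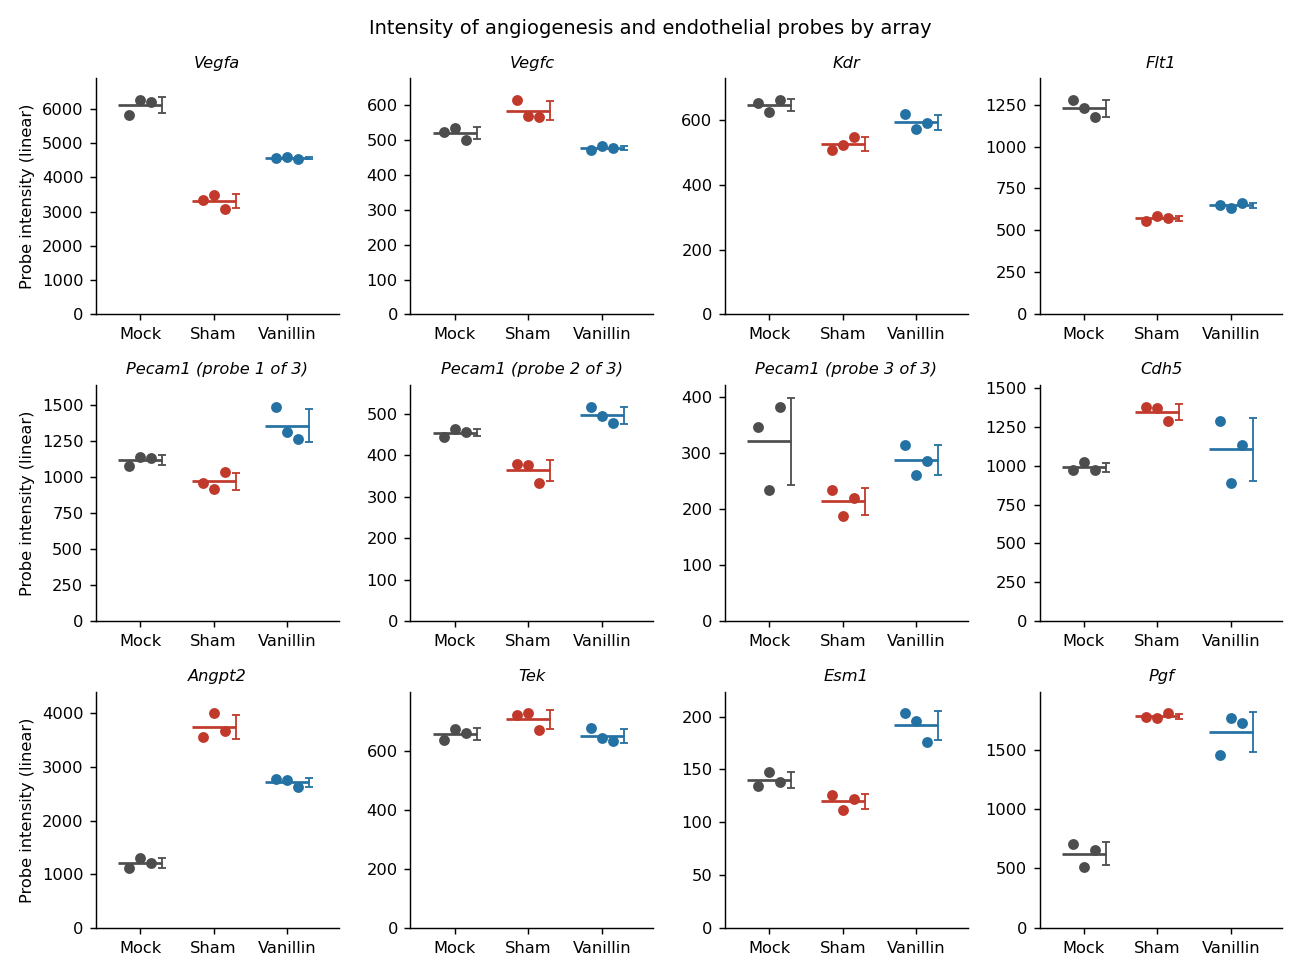
Intensity of the 12 probes on each array (points, linear axis from 0) in Mock, Sham and Vanillin, with the group mean as a line and the SD of 3 arrays as a bar beside it. Angpt2 and Pgf are higher in both AOM/DSS groups than in Mock, Flt1 is lower in both, and Vegfa is lowest in Sham with Vanillin between the other groups.

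Of the receptors, Flt1 fell to 0.473 of its Mock level in Sham, Kdr fell to 0.818 and Tek was not called. Flt1 read 1278, 1232 and 1176 in Mock, 557, 584 and 576 in Sham, and 651, 634 and 666 in Vanillin. Every AOM/DSS array was far below every Mock array, and the Vanillin arrays lay just above the Sham ones. Flt1 fell by 1.08 in Sham minus Mock (SE 0.049, adjusted p = 8.9e-08), and remained lower by 0.90 in Vanillin minus Mock (change -0.90, adjusted p = 6.3e-07). Its rise of 0.18 in Vanillin minus Sham was called (SE 0.049, adjusted p = 0.0149) but not with the replicate number as a block among the Sham and Vanillin arrays (adjusted p = 0.0538).

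Kdr, the receptor that carries most of the Vegfa signal, read 652, 626 and 663 in Mock, 507, 523 and 549 in Sham, and 618, 573 and 590 in Vanillin. The groups followed one another without overlap, in the order Sham, Vanillin, Mock. Kdr fell by 0.29 in Sham minus Mock (SE 0.052, adjusted p = 0.00102), and its change in Vanillin minus Mock, -0.12, was not called (adjusted p = 0.0831). In Vanillin minus Sham it rose by 0.17 (SE 0.052, adjusted p = 0.0244). Leaving out 1 array ended that call in 4 cases: adjusted p was 0.0759 and 0.0593 with Sham replicate 1 or 2 left out, and 0.066 and 0.0504 with Vanillin replicate 1 or 3 left out. With the replicate block among the Sham and Vanillin arrays, Kdr had an adjusted p = 0.0833. Tek, the angiopoietin receptor, read 636, 675 and 660 in Mock, 722, 727 and 671 in Sham, and 679, 644 and 633 in Vanillin, with overlap between every pair of groups. Its changes were 0.10 in Sham minus Mock (95% interval -0.02 to 0.22), -0.11 in Vanillin minus Sham (-0.23 to 0.01) and -0.01 in Vanillin minus Mock (-0.13 to 0.11), none called.

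The genes of endothelial contacts, Pecam1 and Cdh5, moved in opposite directions in Sham minus Mock. Pecam1 (CD31) is an adhesion molecule of endothelial junctions that platelets and several leukocytes also carry. Its brightest probe (mMR029426) read 1081, 1143 and 1137 in Mock, 963, 916 and 1035 in Sham, and 1491, 1317 and 1269 in Vanillin, so that Sham was lowest and Vanillin highest without overlap. That probe fell by 0.20 in Sham minus Mock (SE 0.072, adjusted p = 0.0358), rose by 0.48 in Vanillin minus Sham (SE 0.072, adjusted p = 6.5e-04) and was higher by 0.27 in Vanillin minus Mock (SE 0.072, adjusted p = 0.0118). The second probe of Pecam1 (PH_mM_0016189) read 445, 462 and 455 in Mock, 379, 377 and 334 in Sham, and 517, 494 and 477 in Vanillin. The second probe had the same order of groups, with changes of -0.31 (adjusted p = 0.00167), 0.43 (adjusted p = 3.8e-04) and 0.12 (adjusted p = 0.121, not called). The dimmest probe (PH_mM_0012664) read 346, 233 and 382 in Mock, 234, 187 and 220 in Sham, and 314, 261 and 285 in Vanillin, and its Mock arrays spread by 24.4% of their mean. It gave -0.53 in Sham minus Mock (adjusted p = 0.0217), 0.40 in Vanillin minus Sham (adjusted p = 0.0765, not called) and -0.13 in Vanillin minus Mock (adjusted p = 0.556, not called). The 3 probes therefore had the same sign in the 2 comparisons with Sham and not between Vanillin and Mock, where their average gave 0.09 (adjusted p = 0.336, not called).

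Single arrays decided several of these Pecam1 calls. The fall of the brightest probe in Sham minus Mock had an adjusted p of 0.0938 and 0.0951 with Mock replicate 2 or 3 left out, and of 0.0809 and 0.115 with Sham replicate 1 or 2 left out. The fall of the dimmest probe had 0.066 and 0.0763 with Mock replicate 1 or 3 left out, and 0.0776 with Sham replicate 2 left out. Without Mock replicate 2 the dimmest probe was called in both comparisons with Vanillin, at 0.40 against Sham (adjusted p = 0.0109) and -0.33 against Mock (adjusted p = 0.0374). With the replicate block among the Sham and Vanillin arrays, the change of 0.40 was called as well (adjusted p = 0.00489). The falls of the second probe in Sham minus Mock and the rises of the 2 brighter probes in Vanillin minus Sham kept their calls in every fit that left out 1 array.

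Cdh5, VE-cadherin, the cadherin that joins endothelial cells, read 974, 1025 and 970 in Mock, 1381, 1370 and 1288 in Sham, and 1290, 889 and 1137 in Vanillin. The Sham arrays were above the Mock arrays, while the Vanillin arrays ranged from below the lowest Mock array to just above the lowest Sham array. Cdh5 rose by 0.44 in Sham minus Mock (SE 0.12, adjusted p = 0.00949), a 1.35-fold change. Its values in Vanillin minus Sham, -0.30 (adjusted p = 0.0625), and Vanillin minus Mock, 0.14 (adjusted p = 0.342), were not called. The SD of the Vanillin arrays was 18.3% of their mean, against 3.13% in Mock and 3.77% in Sham. Without Vanillin replicate 1, Cdh5 was called lower than in Sham (change -0.41, adjusted p = 0.00943), and without Vanillin replicate 2 it was called higher than in Mock (0.29, adjusted p = 0.012).

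Esm1, or endocan, is a proteoglycan that the leading tip cells of sprouting vessels secrete. Its probe read 134, 148 and 138 in Mock, 126, 112 and 122 in Sham, and 203, 196 and 176 in Vanillin. The Vanillin arrays were the highest of all 9 and the Sham arrays the lowest. Esm1 rose by 0.61 in Vanillin minus Sham (SE 0.067, adjusted p = 9.8e-05) and by 0.41 in Vanillin minus Mock (SE 0.067, adjusted p = 8.1e-04). It fell by 0.20 in Sham minus Mock (SE 0.067, adjusted p = 0.0301). That last call had an adjusted p of 0.0996 and 0.0639 with Mock replicate 2 or 3 left out, and of 0.1 and 0.0529 with Sham replicate 2 or 3 left out.

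Counted by probe, 4 of the 12 were called higher and 7 lower in Sham minus Mock, where 59.7% of all probes were called (36.5% higher and 23.2% lower). The 7 lower probes became 4 without Mock replicate 3 and 4 without Sham replicate 2. In Vanillin minus Sham, 6 were called higher and 2 lower, where 47.9% of all probes were called (15.7% higher and 32.2% lower). In Vanillin minus Mock, 4 were called higher and 2 lower, against 50.7% of all probes called (24.5% higher and 26.2% lower). The 2 groups' arrays did not overlap for 10, 9 and 9 of the 12 probes in the 3 comparisons, beside 67.1%, 56.3% and 60.4% of all probes. By gene, with the brightest probe of Pecam1, the median change of the 10 was -0.05, 0.03 and 0.07, beside 0.10, -0.09 and 0.00 over all probes. The members moved both ways, so the median describes none of them. Because the Sham arrays enter the first comparison and the second with opposite signs, values of these 2 are only set side by side.

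**Figure D2:**
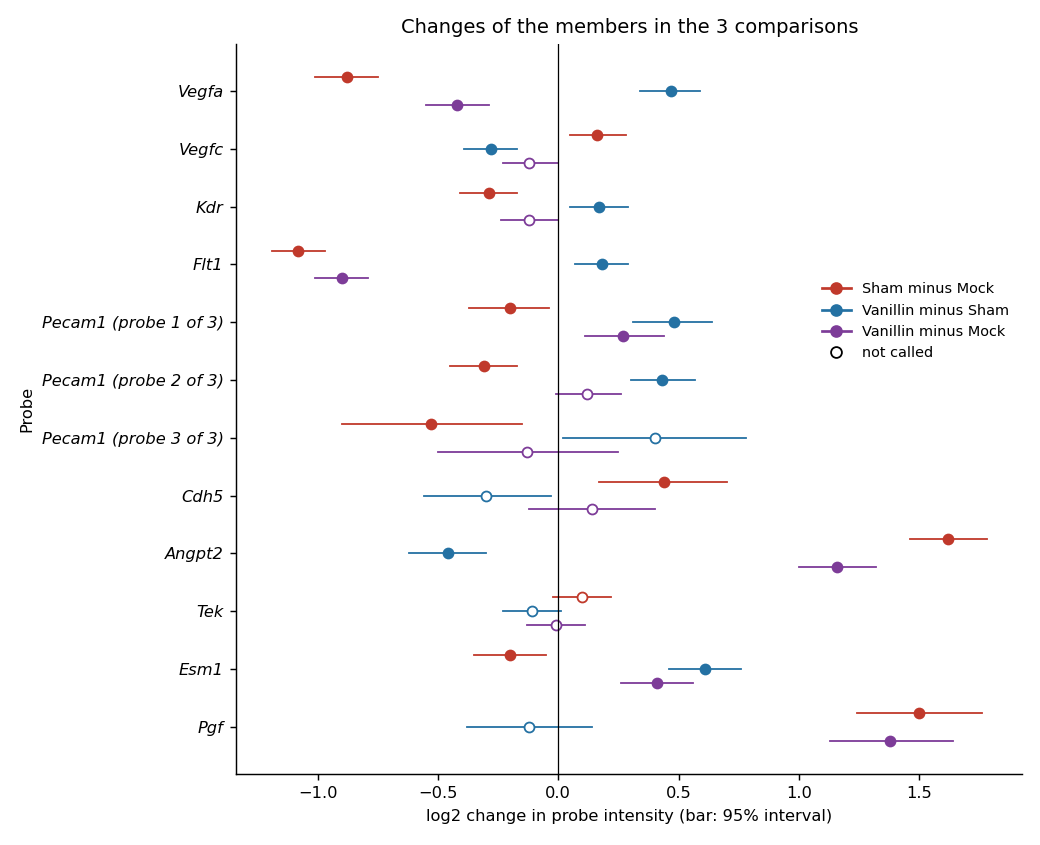
Change in log2(intensity + 16) of each of the 12 probes (points) with its 95% interval (bars) in the 3 comparisons; open points were not called. Angpt2 and Pgf stand at 1.62 and 1.50 in Sham minus Mock, Flt1 and Vegfa at -1.08 and -0.88, and Esm1 has the highest value in Vanillin minus Sham, 0.61.

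Ratios between members within an array show how far they moved apart. They are given as log2 ratios with the Mock mean set to 0 and without a test, since the pairs were chosen with the values known. The ratio of Pgf to Vegfa, 2 ligands of Flt1, was 2.38 ± 0.11 (SD, n = 3) in Sham and 1.80 ± 0.15 in Vanillin, with no overlap among the 3 groups. The ratio of the 2 receptors, Flt1 to Kdr, was -0.79 ± 0.04 in Sham and -0.78 ± 0.05 in Vanillin. The Sham and Vanillin arrays overlapped for that ratio, and both lay below the Mock arrays. For Angpt2 over its receptor Tek the values were 1.52 ± 0.09 in Sham and 1.17 ± 0.03 in Vanillin, and Mock arrays had an SD of 0.07. Set against the brightest probe of the junction gene Pecam1, Angpt2 was higher by 1.83 ± 0.16 in Sham and 0.89 ± 0.09 in Vanillin. The ratio of Cdh5 to that probe was 0.64 ± 0.14 in Sham and -0.13 ± 0.22 in Vanillin. Cdh5 thus stood higher against Pecam1 in Sham than in the other groups. The Pecam1 probes differed in Vanillin minus Mock (0.27, 0.12 and -0.13), so the Vanillin values of both ratios depend on the probe.

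**Figure D3:**
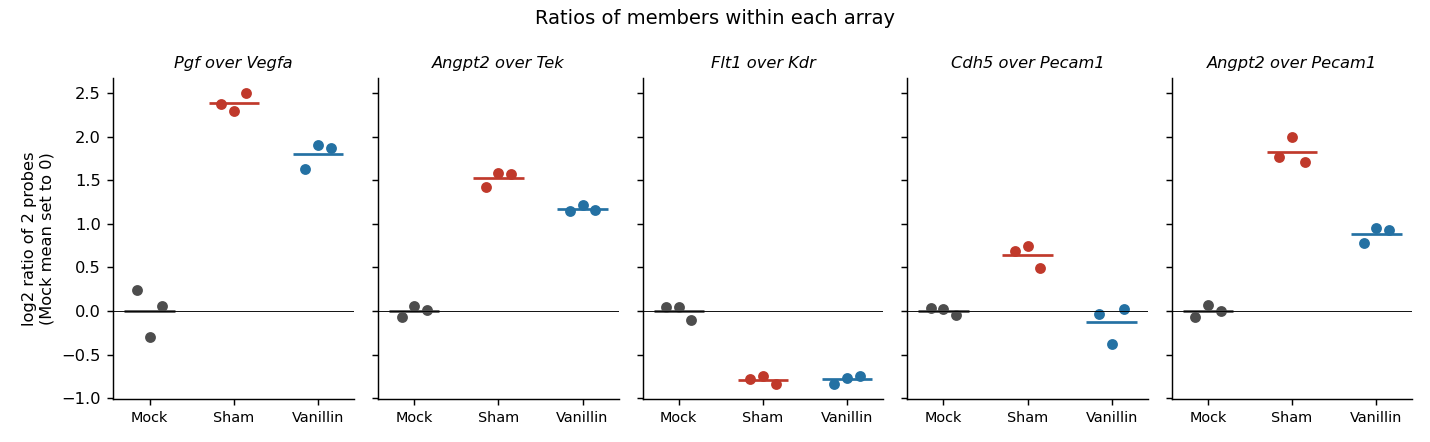
Within-array log2 ratios of 5 pairs of probes on each array (points; line, mean of 3), with the Mock mean set to 0. Pgf over Vegfa and Angpt2 over Tek are highest in Sham and intermediate in Vanillin, while Flt1 over Kdr lies near -0.79 in Sham and -0.78 in Vanillin.

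Other ligands and receptors of the same systems also moved both ways. Of 10 such genes, 2 were called higher and 4 lower in Sham minus Mock (median -0.08), and 5 higher and 0 lower in Vanillin minus Sham (median 0.10). Of all probes, 59.7% and 47.9% were called in these 2 comparisons, and the counts of the later lists stand beside the same shares. The 5 genes called higher became 3 with Mock replicate 3, Sham replicate 1, Vanillin replicate 2 or Vanillin replicate 3 left out, and 3 with the replicate block among Sham and Vanillin arrays. Vegfd, the close relative of Vegfc, read 377, 399 and 395 in Mock, 133, 133 and 130 in Sham, and 238, 213 and 208 in Vanillin. The 3 groups of Vegfd did not overlap, and it fell by 1.46 in Sham minus Mock (SE 0.057, adjusted p = 3.1e-08) and rose by 0.67 in Vanillin minus Sham (adjusted p = 2.0e-05). Angpt1, the activator of Tek, read 404, 412 and 422 in Mock, 265, 231 and 227 in Sham, and 346, 360 and 362 in Vanillin. Angpt1 fell by 0.74 in Sham minus Mock (SE 0.062, adjusted p = 6.3e-06), where Angpt2 rose, and rose by 0.54 in Vanillin minus Sham (adjusted p = 1.3e-04). Vegfb, a ligand of Flt1, fell by 0.55 in Sham minus Mock (adjusted p = 3.1e-04) and had -0.01 in Vanillin minus Sham (not called). Angptl4, a secreted protein of fat and hypoxic tissue, fell by 1.30 and then rose by 1.16 in the same 2 comparisons. The co-receptor Nrp1 rose in both, by 0.19 (adjusted p = 0.0441) and 0.20 (adjusted p = 0.0403). Angpt4 rose by 0.67 in Sham minus Mock. The lymphatic receptor Flt4 (-0.13 and -0.09) and Tie1 (0.02 and 0.04) were called in neither, and Nrp2 was called in the second of these (0.17, adjusted p = 0.034), where its other probe gave -0.04. The 2 genes called higher in Sham minus Mock became 1 when Mock replicate 2 or 3, Sham replicate 3, or Vanillin replicate 2 or 3 was left out.

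Dll4 and Apln, genes of sprouting tip cells, rose with AOM/DSS and were lower in Vanillin than in Sham. Of 9 measured tip cell and Notch genes, 5 were called higher and 2 lower in Sham minus Mock (median 0.43), and 1 higher and 3 lower in Vanillin minus Sham (median 0.00; 2 higher with Sham replicate 1 or Vanillin replicate 2 left out). The share of all probes called was 59.7% and 47.9% there. Dll4, the Notch ligand of tip cells, read 165, 160 and 163 in Mock, 519, 516 and 476 in Sham, and 268, 289 and 301 in Vanillin. Dll4 rose by 1.54 in Sham minus Mock (SE 0.058, adjusted p = 2.2e-08) and fell by 0.78 in Vanillin minus Sham (SE 0.058, adjusted p = 7.5e-06), with no overlap of the groups. The peptide gene Apln and its receptor Aplnr rose by 1.27 and 0.49 and then fell by 0.38 and 0.32. Jag1, a Notch ligand that competes with Dll4, moved the other way, with -1.24 and 0.76. Unc5b, a guidance receptor of tip cells, fell by 1.20 in Sham minus Mock and had 0.07 in Vanillin minus Sham (not called). Nid2 and Cxcr4 of the same list rose by 0.67 and 0.43 in Sham minus Mock. They were not called in Vanillin minus Sham (-0.07 and 0.15) and were higher in Vanillin than in Mock (0.60 and 0.58, both called). Esm1, also a tip cell product, was instead lowest in Sham and highest in Vanillin.

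Genes that define endothelium moved both ways. Of 21 measured identity genes, 5 were called higher, 9 lower and 7 not in Sham minus Mock (median -0.06). In Vanillin minus Sham, 10 were called higher, 2 lower and 9 not (median 0.25). Of all probes, 59.7% and 47.9% were called in these comparisons. Among the 9, Mmrn2 (-0.32) and Clec14a (-0.35) each had another probe, which gave 0.06 and 0.32. The summed intensity of the 21 genes was 54223 to 57080 in Mock, 48839 to 49585 in Sham and 53408 to 56462 in Vanillin. In each group 1 of the 21 was below a mean of 50. Plvap made up much of that sum, and without it the range was 29128 to 29589 in Mock, 22696 to 23300 in Sham and 29045 to 30341 in Vanillin. Single bright genes still weighed in it: Cd34 had means of 5823, 2286 and 5041 in Mock, Sham and Vanillin. Sox17 went the other way, with 295, 3026 and 2054. Whether the sum follows the amount of endothelium was not tested. Plvap, of fenestrated capillaries, stayed between 23067 and 27952 on the 9 arrays and was called in no comparison (0.02, -0.04 and -0.02). Tie1, Robo4 and Icam2 were likewise not called in any of the 3. Cldn5, a tight junction gene of endothelium, read 3097, 2864 and 2787 in Mock, 987, 966 and 966 in Sham, and 1833, 1841 and 1834 in Vanillin. It fell by 1.57 in Sham minus Mock (SE 0.05, adjusted p = 7.5e-09) and rose by 0.90 in Vanillin minus Sham (adjusted p = 1.1e-06), beside 0.44 and -0.30 (the latter not called) for Cdh5. Emcn, a sialomucin of capillaries and veins, had -0.84 and 0.62, and Cd34, which some stromal cells also carry, had -1.34 and 1.14, all called. Vwf, the clotting factor stored in endothelium, was not called in Sham minus Mock (-0.06) and rose by 0.38 in Vanillin minus Sham (adjusted p = 0.00521). The SOX factors parted: Sox7 fell by 3.66 and rose by 2.62, whereas Sox17 rose by 3.29 and fell by 0.56. Bulk tissue does not show which cell types carried these transcripts. Ecscr, an endothelial surface protein, moved as Sox17 did, with 2.61 and -0.72.

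**Figure D4:**
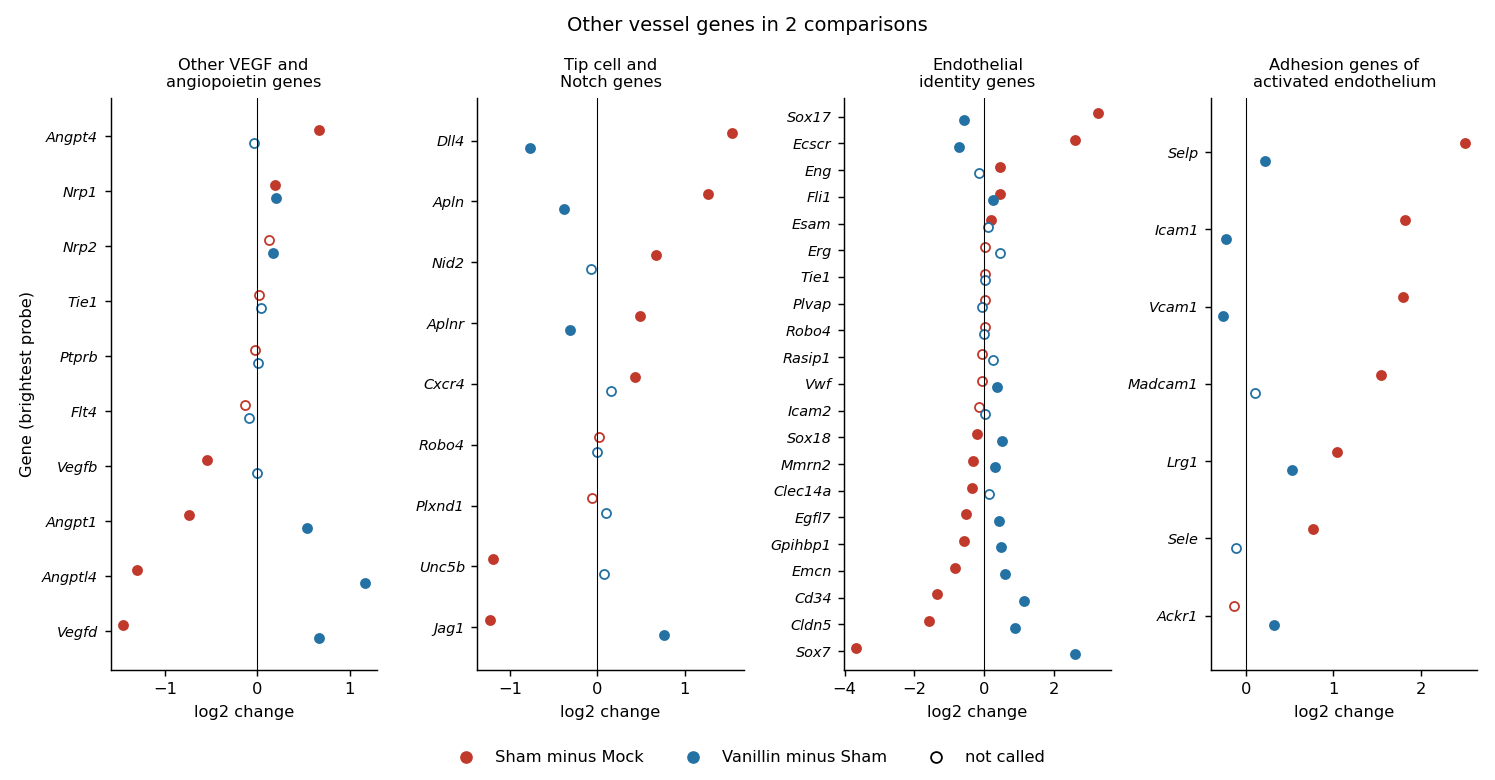
Log2 change of each measured gene (brightest probe) of 4 lists of vessel genes in Sham minus Mock and Vanillin minus Sham; open points were not called, and each panel has its own axis. Dll4 and Apln are higher in Sham and lower again with vanillin, Sox7 and Sox17 stand at opposite ends of the identity genes, and 6 of 7 adhesion genes were called higher in Sham minus Mock.

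Most adhesion genes of activated endothelium were higher in both AOM/DSS groups. Of 7, 6 were called higher in Sham against Mock (median 1.54) and 6 likewise in Vanillin against Mock (median 1.56), with 3 higher and 2 lower in Vanillin minus Sham (median 0.10). Over all probes, 59.7%, 50.7% and 47.9% were called in these comparisons. Selp, the selectin that captures leukocytes, read 107, 107 and 106 in Mock, 719, 612 and 719 in Sham, and 808, 802 and 784 in Vanillin. It rose by 2.51 in Sham minus Mock (SE 0.065, adjusted p = 1.7e-09). Icam1 and Vcam1, which leukocytes grip, rose by 1.82 and 1.80, and Madcam1, the gut's lymphocyte address molecule, by 1.54. Pecam1, an adhesion gene of resting endothelium too, was lower in the same comparison. In Vanillin minus Sham, Lrg1, a secreted glycoprotein of activated endothelium and other cells, rose by 0.53 (adjusted p = 1.9e-05), Ackr1, a chemokine receptor of venules, by 0.32 (adjusted p = 0.0114) and Selp by 0.22 (adjusted p = 0.02). Icam1 and Vcam1 fell by 0.23 and 0.26 there, and Madcam1 (0.10) and Sele (-0.12) were not called. The count of 2 lower genes became 1 without Sham replicate 1, Sham replicate 3, Vanillin replicate 1, Vanillin replicate 2 or Vanillin replicate 3, and 1 with the replicate block among Sham and Vanillin arrays.

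Among the other lists, most hypoxia response genes were called lower in Sham, as Vegfa was. Of 14 hypoxia response genes, 0 were called higher and 11 lower in Sham minus Mock (median -0.72), 2 higher and 3 lower in Vanillin minus Sham (median 0.05), and 1 higher and 13 lower in Vanillin minus Mock (median -0.51). Over all probes, 59.7%, 47.9% and 50.7% were called in these comparisons, which serves for the other lists here too. Slc2a1, the glucose transporter, fell by 1.24 and rose by 0.46 in Vanillin minus Sham, as Vegfa did, but Bnip3 (-1.65 and 0.07) and Egln1 (-0.95 and 0.03) fell without a called rise. Hif1a, the oxygen-regulated factor itself, fell by 0.30 in Sham minus Mock on its brightest probe, and its other probes ranged from -0.17 to 0.47. Of 11 inhibitors of angiogenesis, 4 were called higher and 2 lower in Sham minus Mock (median 0.14). Thbs1, which blocks endothelial migration, rose by 1.42, Vash2, which is described as promoting angiogenesis although listed here, by 3.19, and Serpinf1, a secreted inhibitor, fell by 2.12. Of the 2 that fell, Timp3 (-0.24, adjusted p = 0.0228) was near the threshold, and 1 gene was lower without Mock replicate 2, Mock replicate 3, Sham replicate 1 or Sham replicate 3. In Vanillin minus Sham, 3 inhibitors were called higher and 2 lower, with Serpinf1 at 1.32 and Adamts1 at 0.95. Of 10 other angiogenic growth factors, 2 were called higher and 4 lower in Sham minus Mock and 5 higher and 2 lower in Vanillin minus Sham. Hgf had a mean intensity of 110 in Mock, 6.74 in Sham and 95.2 in Vanillin and was called lower and then higher. Its Sham level lies below the pseudocount, so the size is not fixed: its change in Sham minus Mock was -3.85 with a pseudocount of 1 and -1.30 with 64.

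Of 9 pericyte and mural cell genes, 2 were called higher and 5 lower in Sham minus Mock (median -0.27), with Cspg4 at -1.50, Rgs5 at -0.34 and Pdgfrb at 0.60. In that comparison 59.7% of all probes were called. Ndufa4l2, a mitochondrial protein gene of pericytes, fell by 5.39 in the same comparison (change -4.56 with a pseudocount of 64, its Sham mean being 43.7) and rose by 3.20 in Vanillin minus Sham. Of 6 lymphatic endothelium genes, 3 were called higher and 1 lower in Sham minus Mock (median 0.20). Prox1, the master factor of lymphatic identity that tumour cells of the colon can also express, rose by 3.50, and Pdpn by 1.05, while Mmrn1 fell by 0.87 and the Vegfc receptor Flt4 was not called. Vegfc itself rose by 0.16 in that comparison.

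Markers of other cell types also differed between the groups, some in the order of Vegfa, Kdr and Flt1, whose group means were highest in Mock and lowest in Sham. Sums add probes that are not comparable in level, so bright probes weigh most and the counts of genes stand beside them. All 12 squamous epithelium markers fell in Sham minus Mock and 11 of 12 rose in Vanillin minus Sham, and their summed intensity was 474204 to 481030 in Mock, 26703 to 27938 in Sham and 241891 to 297165 in Vanillin. All 10 adipocyte markers fell and then rose, with sums of 130617 to 131492, 7684 to 7897 and 105998 to 109011. All 6 measured skeletal muscle markers fell, and when Vanillin is set against Sham 5 rose and Actn3 fell further (-0.35, adjusted p = 0.00261), with sums of 107727 to 115947, 2451 to 2574 and 40207 to 46454. Smooth muscle markers fell in 6 of 6 and rose in 4, with sums of 93504 to 94877, 40406 to 43125 and 46551 to 49840. In Sham, 4 squamous markers and 1 adipocyte marker had a mean intensity below 50, and none of these lists was at 0. In Vanillin, 1 skeletal muscle marker had a mean below 50, where none of that list did in Sham. Actn3 was the only one of them called lower there, so its fall can lie near the floor. The part of these tissues in the changes of the members was not tested.

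Other lists had other orders. Macrophage and monocyte markers, cells that can carry Pecam1 and Flt1, had sums of 37360 to 38453 in Mock, 82387 to 87527 in Sham and 101709 to 106920 in Vanillin, with 4 of 9 called higher and 1 lower in Sham minus Mock (median 0.16) and 6 higher and 0 lower in Vanillin minus Sham (median 0.37). The rise of that sum in Sham lay mostly in C1qa and Cd14, while Cd163 fell by 2.81. Neutrophil markers had sums of 17611 to 19318, 66428 to 68545 and 117306 to 123913, with 7 of 8 called higher in each comparison. Fibroblast markers had sums of 119652 to 121761, 107346 to 110911 and 143680 to 147712, but 4 of 9 were called higher and 3 lower in Sham minus Mock (median -0.03), and 7 higher and 1 lower in Vanillin minus Sham (median 0.42). Colonocyte markers had sums of 249908 to 259400, 180026 to 196531 and 183579 to 189185. Of those 10 genes, 3 were called higher and 3 lower in Sham minus Mock (median 0.02), with Car4, Slc26a3 and Car1 the ones that fell, and 0 higher and 7 lower in Vanillin minus Sham (median -0.33). The part of these cell types was not tested.

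**Figure D5:**
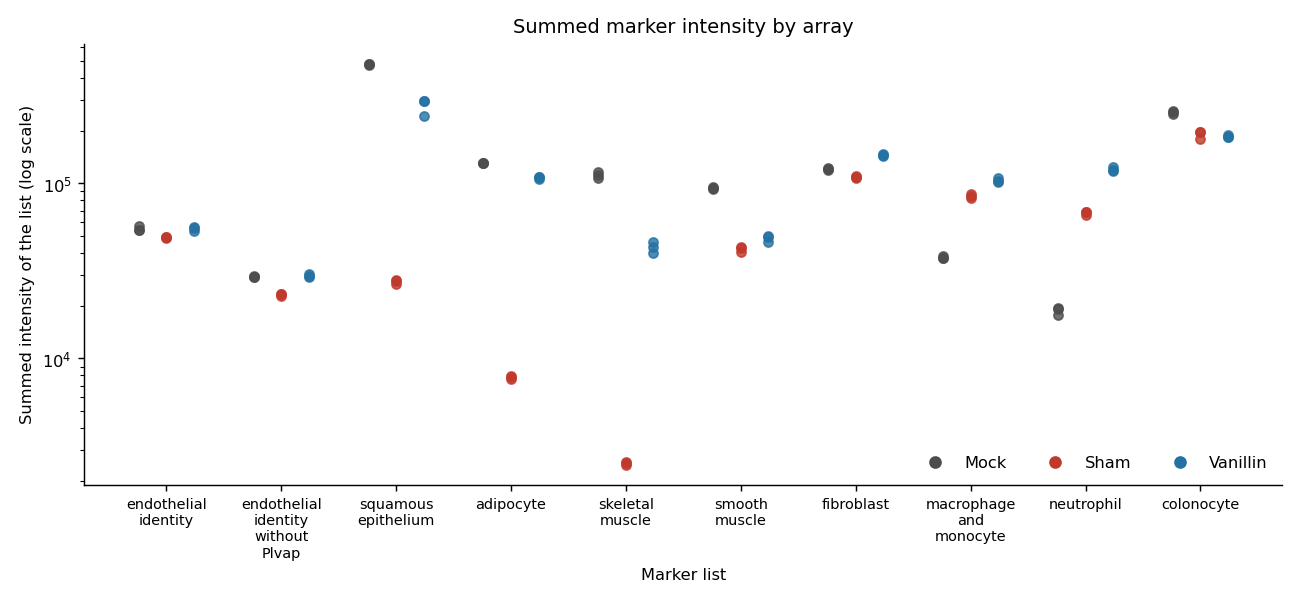
Summed intensity of the measured genes of 9 marker lists, and of the endothelial identity list without its brightest gene Plvap, on each array (points, log axis) in Mock, Sham and Vanillin. Without Plvap the endothelial sum is 22696 to 23300 in Sham and 29128 to 29589 in Mock, with bright genes, Cd34 among them, weighing most. The squamous epithelium list runs from 26703 to 481030 and the skeletal muscle list from 2451 to 115947.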

How the data were processed

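RNA from 9 colon samples was measured on 9 one-colour arrays. Per the labels' protocols, RNA was amplified and labelled with Cy5. The authors deposited 1 linear intensity per probe and array. From the values, background had been subtracted (each array held 3 to 14 negative ones) and arrays quantile normalized by the authors (medians 319.6 to 320.1). The submitters' processing notes name limma without its role or version. The scanner is not given in the sources used here. Over all probes the log2 values correlated at 0.995 to 0.998 within groups and 0.926 to 0.973 between groups. The number of arrays limits the precision.

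Negative values were set to 0 and log2(value + 16) was taken. limma 3.58.1 in R 4.3.3 (lmFit, eBayes without trend, two-sided) fitted 3 group means to all 9 arrays, with 6 residual and 2.69 prior degrees of freedom, and p-values were adjusted over 26423 probes in each of the 3 comparisons. The script was tested on simulated data. Of the probes, 20377 had 1 gene symbol and 6046 none, and 2126 symbols were updated through RefSeq. A gene is led by its brightest probe over all arrays. The members and the 17 lists were chosen with earlier results of these data known. Named genes are all members, a fixed set (Vegfb, Flt4, Nrp1, Nrp2, Angpt1, Tie1, Dll4, Plvap, Vwf, Emcn, Hif1a) and up to 4 per list and comparison with the smallest p. Icam2, Robo4, Mmrn2, Clec14a, Rgs5, Timp3, Vcam1, Sele and the single markers of other cell types (Actn3, C1qa, Cd14, Cd163, Car4, Slc26a3, Car1) are outside that rule. They were chosen after their values were seen, as were the endothelial sum without Plvap and the pseudocounts shown for Hgf. Deviations from the group means correlated weakly between same-numbered Sham and Vanillin arrays (0.126 to 0.201). Those of Mock with the others did not (-0.288 to -0.0162). Differently numbered arrays ran from -0.203 (Sham 1 with Vanillin 3) to 0.215 (Mock 1 with Vanillin 3). These correlations therefore do not establish a pairing, and the labels state none. The replicate number was tried as a block over all 9 arrays for the 3 comparisons. It was also tried among the Sham and Vanillin arrays alone for Vanillin minus Sham, a fit chosen after the data were examined. Promoter windows come from RefSeq (GRCm38.p6). Python 3.11.15 and matplotlib 3.10.9 made the figures.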

Additional observations from a re-analysis of the deposited data

How the results depend on the processing

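Of 654 member changes recomputed under 19 alternatives, 614 kept their direction and their side of the threshold, 23 lost a call and 13 gained one. The other 4 turned sign, all in Vanillin minus Mock and never called: Cdh5 from 0.14 to -0.02 with array weights, the dimmest Pecam1 probe from -0.13 to 0.01 without Mock replicate 3, and Tek from -0.01 to 0.01 without Mock replicate 2 and to 0.01 without Vanillin replicate 3. Leaving out 1 array took Tek from -0.04 to 0.01 and that Pecam1 probe from -0.33 to 0.01. Pseudocounts of 1 and 64 and an intensity trend changed no call of a member. Quantile normalization applied again changed none either, but the arrays were already quantile normalized, so that setting could change little. It is counted among the 19. Array weights raised the probes called lower from 2 to 4 in Vanillin minus Sham (adding Cdh5 and Tek) and from 2 to 4 in Vanillin minus Mock. Leaving out 1 array gave 4 to 7 probes called lower and 3 to 4 called higher in Sham minus Mock. In Vanillin minus Sham it gave 5 to 7 higher and 2 to 3 lower, and in Vanillin minus Mock 4 to 5 higher and 2 to 3 lower. With a replicate block over all 9 arrays, 4 probes were higher and 5 lower in Sham minus Mock, where Pecam1 (brightest probe, adjusted p = 0.0629) and Esm1 (adjusted p = 0.051) lost their calls. The same replicate block gave 7 higher and 2 lower in Vanillin minus Sham, where the dimmest Pecam1 probe gained a call (adjusted p = 0.0201), and 4 and 2 in Vanillin minus Mock. The block among the Sham and Vanillin arrays changed no call other than those of Flt1, Kdr and the dimmest Pecam1 probe. Of 1924 counts of calls over lists and settings, 1851 stayed within 1.5 times. The number of arrays, 3 in each group, limits the precision.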
